A study of Arabidopsis thaliana with 16 samples.

Results

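Lysine 2-hydroxyisobutyrylation (Khib) was followed over 10 Arabidopsis thaliana genes that are known to respond within minutes to hours to stress: DIC2, ERF4, SRC2, HSPRO2, STZ, CAF1a, J11, NHL3, SZF1 and RHL41. These 10 of the 32548 genes in the tables were chosen by their high level in the Col-0 wild type, so that level is a description here and supports nothing. Levels are in RPKM, reads per kilobase of gene scaled to the size of the library.

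The study used chromatin immunoprecipitation and sequencing (ChIP-seq) with an anti-Khib antibody on whole untreated seedlings, 12 days old, that had grown on 1/2 MS plates at 22 °C in long days (8 h dark). The 4 genotypes were sant-null, labelled as quadruple mutants and tied by the series title to SANT-domain proteins, hda6, an EMS line of the histone deacetylase gene HDA6, hda9, a T-DNA insertion line of the histone deacetylase gene HDA9, and the Col-0 wild type. Each genotype had 2 Khib and 2 input libraries, 16 in all, but the tables hold 1 Khib value per genotype and no input value was used. No difference below therefore has a replicate check or a test, and the 95% intervals cover counting error only. The recovered depths were 12.0 M reads in sant-null, 16.75 M in hda6, 38.77 M in hda9 and 18.6 M in Col-0. Since whole seedlings were used, fewer cells carrying the mark and less of the mark per cell cannot be told apart.

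Khib is a short acyl group on lysines of histones, found mainly over transcribed parts of the genome, and histone deacetylases are among the enzymes that can remove acyl groups. Rapid stress genes are typically short genes that plants switch on quickly and briefly after cold, salt, wounding, strong light or a pathogen signal. The 10 genes fall into 4 roles. ERF4, STZ and RHL41 encode transcription factors, CAF1a and SZF1 encode proteins of messenger RNA turnover and RNA binding, SRC2, HSPRO2 and NHL3 act at membranes or in defence, and DIC2 and J11 encode organelle proteins. Expression was not measured in these tables, so the word stress rests on what is known of the genes.

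The members were short genes with a large share of the reads. Their median length was 1321 bp, with a range of 981 to 2733 bp, against a median of 2146 bp over the 26207 protein-coding genes of at least 500 bp. They make up 0.0307% of the genes in the tables. They held 0.290% of gene reads in sant-null, 0.307% in hda6, 0.101% in hda9 and 0.363% in Col-0. All 10 passed the filter of at least 1 RPKM in at least 2 genotypes, which 31805 genes passed.

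The median level of the members was 119 RPKM in sant-null, 130.3 RPKM in hda6, 42.0 RPKM in hda9 and 129 RPKM in Col-0. Over all genes the median level was 7.86 RPKM in sant-null, 7.08 in hda6, 8.88 in hda9 and 5.63 in Col-0. The members stood far above the typical gene in each genotype, and least far in hda9. The median of the members was 15.1 times the median of all genes in sant-null, 18.4 times in hda6, 4.73 times in hda9 and 22.97 times in Col-0.

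**Figure D1:**
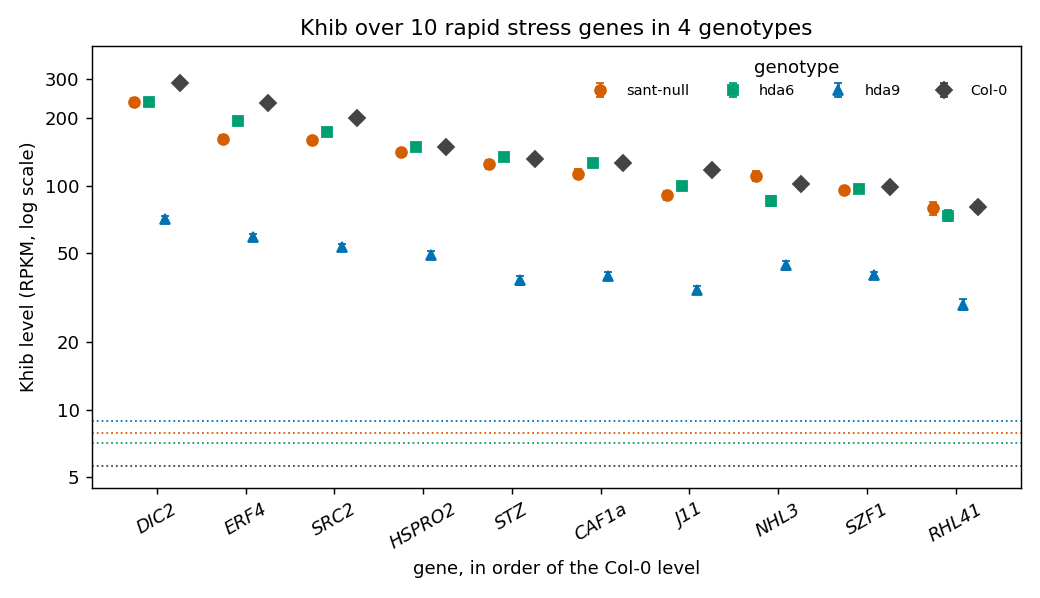
Khib level in RPKM (log axis) of the 10 genes in sant-null, hda6, hda9 and Col-0, in order of the Col-0 level; bars are 95% Poisson intervals of the read counts and dotted lines are the medians of all genes in the same colours. The hda9 values lie between 29.4 and 70.6 RPKM, below the other 3 genotypes at each gene and above the median of all genes.

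The 10 genes are not simply the top of the list. Among protein-coding genes of at least 500 bp, 45 ranked from the first to RHL41 in Col-0, and 35 of them are not members. Of these 35, 12 have a symbol, and 10 lie between 3 and 4 Mb of chromosome 2. Just above DIC2 in Col-0 stood AT2G07629 at 312 RPKM and just below it AT1G40104 at 272 RPKM. Around RHL41, the lowest member at 80.3 RPKM, stood MEE38 at 81.5 RPKM and ENODL2 at 78.4 RPKM. The non-members LHB1B2, which encodes a light-harvesting protein, at 169 RPKM and CBF2, a cold response regulator, at 147 RPKM lay inside the range of the members.

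The members kept high ranks in the genotypes that did not choose them. The median rank of the members among the 26207 genes was 18.5 in sant-null, 20.5 in hda6, 33.5 in hda9 and 18 in Col-0. DIC2 ranked 8 in sant-null, 6 in hda6, 12 in hda9 and 6 in Col-0. RHL41 ranked 50 in sant-null, 60 in hda6, 74 in hda9 and 45 in Col-0, the lowest place of the 10 in each genotype. Against all genes of the tables, short and noncoding ones included, the median rank of the members was 68.5 in sant-null, 72.5 in hda6, 368.5 in hda9 and 54.5 in Col-0.

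The labelled tissue was checked on known leaf and seed genes. The leaf gene CAB1, an antenna protein gene, had 92.4 RPKM in sant-null, 104 in hda6, 35.1 in hda9 and 139 in Col-0. RBCS1A, which encodes a subunit of Rubisco, had 16.6 RPKM in sant-null, 19.4 in hda6, 13.1 in hda9 and 16.6 in Col-0. The seed storage gene CRA1 had 17.8 RPKM in sant-null, 23.5 in hda6, 14.3 in hda9 and 26.2 in Col-0, and the seed oil body gene OLEO1 had 14.9, 19.0, 13.1 and 14.2 RPKM in the same order of genotypes. In that order, the leaf gene CAB2 had 51.8, 58.1, 23.8 and 89.8 RPKM and the seed gene CRU3 had 21.3, 26.7, 16.7 and 29.0 RPKM. In each genotype CAB1 and CAB2 were above all listed seed genes. CRA1 and CRU3 were above the leaf gene RBCS1A in each genotype, and OLEO1 was not. The check thus did not separate leaf from seed genes, so a Khib level is not read as expression below.

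The transcription factor genes were the first role examined. ERF4 (AT3G15210, chromosome 3, 5121303 to 5122562, plus strand, TAIR10) encodes an ethylene response factor that represses its targets. It had 161 RPKM in sant-null, 194 in hda6, 58.8 in hda9 and 233 in Col-0, from 2434, 4086, 2872 and 5451 reads. All 3 mutants lay below Col-0, in the order hda9, sant-null, hda6. The fold of the RPKM over Col-0 was 0.692 in sant-null with a 95% interval of 0.660 to 0.726, the lowest of the 10 genes in that mutant. It was 0.832 in hda6 (0.799 to 0.867) and 0.253 in hda9 (0.242 to 0.265).

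STZ (AT1G27730, chromosome 1, 9648021 to 9649323, minus strand), also called ZAT10, encodes a C2H2 zinc finger repressor known from salt and cold responses. It had 124 RPKM in sant-null, 134 in hda6, 37.9 in hda9 and 132 in Col-0, from 1946, 2925, 1913 and 3197 reads. Only the hda9 value stood clearly apart from Col-0 at this gene. Its fold over Col-0 was 0.943 in sant-null (0.891 to 0.998), 1.02 in hda6 (0.966 to 1.07) and 0.287 in hda9 (0.271 to 0.304).

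RHL41 (AT5G59820, chromosome 5, 24102814 to 24103794, plus strand), also called ZAT12, encodes a C2H2 zinc finger protein known from strong light and oxidative stress. It had 79.1 RPKM in sant-null, 73.5 in hda6, 29.4 in hda9 and 80.3 in Col-0, from 931, 1207, 1120 and 1466 reads, the fewest reads of any member. Its sant-null and Col-0 values were within counting error. Relative to Col-0, the fold was 0.984 in sant-null (0.906 to 1.07), 0.914 in hda6 (0.847 to 0.987) and 0.367 in hda9 (0.339 to 0.396).

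The genes of RNA turnover differed little between sant-null, hda6 and Col-0. CAF1a (AT3G44260, chromosome 3, 15952008 to 15953346, minus strand) encodes a deadenylase that shortens the poly(A) tails of messenger RNAs. It had 113 RPKM in sant-null, 127 in hda6, 39.6 in hda9 and 127 in Col-0, from 1818, 2840, 2055 and 3151 reads. Relative to Col-0, the fold was 0.894 in sant-null (0.844 to 0.948), 1.00 in hda6 (0.951 to 1.05) and 0.313 in hda9 (0.296 to 0.331). The hda6 and Col-0 values of CAF1a could not be separated.

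SZF1 (AT3G55980, chromosome 3, 20776220 to 20778952, plus strand) encodes a CCCH zinc finger protein known from salt stress, and is the longest of the 10 genes. It had 95.2 RPKM in sant-null, 96.1 in hda6, 39.9 in hda9 and 98.7 in Col-0, from 3122, 4400, 4225 and 5016 reads. The intervals of its folds over Col-0 held 1 in sant-null (0.965, 0.922 to 1.01) and in hda6 (0.974, 0.935 to 1.02). In hda9 the fold was 0.404 (0.388 to 0.421), higher than at any other member but NHL3.

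The membrane and defence genes followed. SRC2 (AT1G09070, chromosome 1, 2927502 to 2929107, plus strand) encodes a C2-domain membrane protein known from cold responses. It had 159.7 RPKM in sant-null, 174 in hda6, 53.1 in hda9 and 199 in Col-0, from 3078, 4688, 3308 and 5958 reads. Each mutant lay below Col-0, with folds of 0.801 in sant-null (0.766 to 0.837), 0.874 in hda6 (0.841 to 0.908) and 0.266 in hda9 (0.255 to 0.278).

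HSPRO2 (AT2G40000, chromosome 2, 16700490 to 16702336, minus strand) encodes a protein of basal resistance to bacteria. It had 141 RPKM in sant-null, 148 in hda6, 49.2 in hda9 and 148 in Col-0, from 3132, 4584, 3525 and 5089 reads. The hda6 and Col-0 levels were alike to 3 digits. Its fold over Col-0 was 0.954 in sant-null (0.912 to 0.998), 1.00 in hda6 (0.961 to 1.04) and 0.332 in hda9 (0.318 to 0.347).

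NHL3 (AT5G06320, chromosome 5, 1930793 to 1931782, minus strand) encodes a plasma membrane protein of the NDR1/HIN1-like family, known from resistance to Pseudomonas. It had 110.4 RPKM in sant-null, 85.15 in hda6, 44.1 in hda9 and 101 in Col-0, from 1311, 1412, 1694 and 1868 reads. It was the 1 member whose level was highest in sant-null. The fold over Col-0 was 1.09 in sant-null (1.01 to 1.17), 0.839 in hda6 (0.783 to 0.900) and 0.435 in hda9 (0.407 to 0.465). The sign of the sant-null difference turned when the genotypes were scaled to equal medians over all genes, where the log2 ratio was -0.35.

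Both organelle genes were lower in each mutant. DIC2 (AT4G24570, chromosome 4, 12686459 to 12687650, plus strand) encodes a carrier of dicarboxylates in the inner mitochondrial membrane. It had 237 RPKM in sant-null, 237 in hda6, 70.6 in hda9 and 288 in Col-0, from 3386, 4732, 3265 and 6395 reads, the highest level of the 10 genes in each genotype. The fold over Col-0 was 0.821 in sant-null (0.787 to 0.856), 0.822 in hda6 (0.791 to 0.853) and 0.245 in hda9 (0.235 to 0.256). The hda9 fold was the lowest of the 10 genes.

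J11 (AT4G36040, chromosome 4, 17049152 to 17050608, minus strand) encodes a small J-domain co-chaperone of the chloroplast. It had 90.5 RPKM in sant-null, 99.4 in hda6, 34.3 in hda9 and 117 in Col-0, from 1583, 2427, 1937 and 3172 reads. The mutants lay below Col-0 in the order hda9, sant-null, hda6, as at ERF4 and SRC2. The fold over Col-0 was 0.774 in sant-null (0.728 to 0.822), 0.850 in hda6 (0.806 to 0.896) and 0.293 in hda9 (0.277 to 0.310).

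The counting error of a level was small beside the differences of hda9 from the other genotypes, and not beside every difference of sant-null or hda6 from Col-0. The 95% Poisson intervals had half-widths between 2.46% of the level (DIC2 in Col-0) and 6.48% (RHL41 in sant-null). ChIP reads are not independent molecules, so the true errors are larger and cannot be given without the single libraries.

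The order of the 10 genes was largely shared. From high to low it ran DIC2, ERF4, SRC2, HSPRO2, STZ, CAF1a, J11, NHL3, SZF1, RHL41 in Col-0. In sant-null 7 of the 10 members held the same place as in Col-0, in hda6 8 of 10 and in hda9 5 of 10. The largest shift from the Col-0 place was 3 places, by STZ, NHL3 and SZF1 in hda9. NHL3 stood at place 7 in sant-null, 9 in hda6, 5 in hda9 and 8 in Col-0. Some neighbours in the order could not be separated by counting error. These were ERF4 and SRC2, CAF1a and NHL3, and SZF1 and J11 in sant-null, J11 and SZF1 in hda6, SZF1 and CAF1a, and CAF1a and STZ in hda9, and STZ and CAF1a, and NHL3 and SZF1 in Col-0.

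The members were closest to each other in hda9. The highest member was 2.99 times the lowest in sant-null, 3.23 times in hda6, 2.40 times in hda9 and 3.59 times in Col-0. The range over all genes was also narrowest in hda9, where the 95th percentile of gene levels was 8.45 times the 5th, against 31.1 times in sant-null, 29.95 times in hda6 and 20.3 times in Col-0. The part of this narrower range in the members' values was not tested.

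The question put to the mutants was how their Khib differs from that of the wild type. The 3 comparisons share the Col-0 values, which are also the values that chose the members, so nothing is read from the counts. Ratios were taken as log2 of RPKM + 1 in the mutant over Col-0, and a gene was called at a difference of at least 1.5-fold. In hda9 all 10 members were called lower and 0 higher, beside 9.08% of the 31805 genes called lower and 43.7% called higher. The median log2 ratio of the members was -1.70, beside 0.48 for all genes.

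In sant-null 0 of the 10 members were called higher and 0 lower, beside 23.7% of all genes called higher and 6.01% called lower. The median log2 ratio of the members was -0.12, beside 0.28 for all genes. Of the intervals of the folds, 7 lay below 1, 1 above (NHL3) and 2 held 1 (SZF1 and RHL41). In hda6 0 of the 10 members were called in either direction, beside 9.08% of all genes called higher and 3.05% called lower. The median log2 ratio of the members in hda6 was -0.16, beside 0.20 for all genes, with 6 intervals below 1 and 4 that held 1 (HSPRO2, STZ, CAF1a and SZF1). Thus sant-null and hda6 stayed within 1.5-fold of Col-0 at each member. With the genotypes scaled to equal medians, which takes away the upward shift of the typical gene, 5 members were called lower in sant-null and 2 in hda6. The share of all genes called lower under that scaling was not counted, so nothing is read from these counts.

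**Figure D2:**
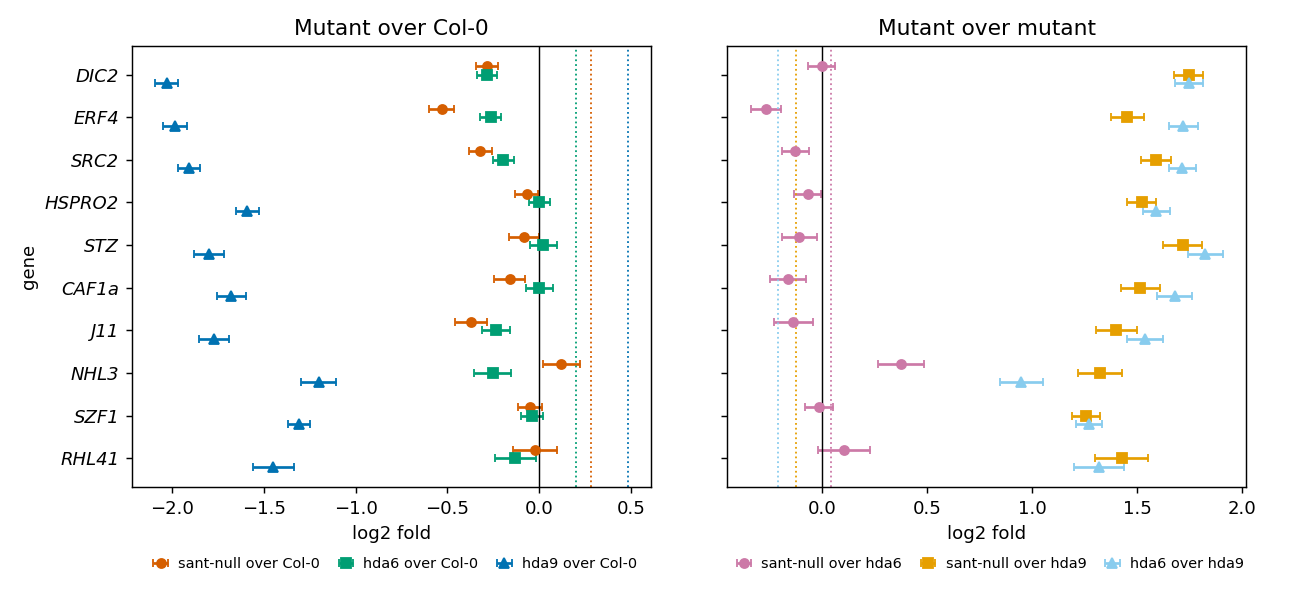
Log2 fold of the Khib level at each of the 10 genes, mutant over Col-0 on the left and mutant over mutant on the right; bars are 95% intervals from the read counts and dotted lines are the medians of all genes on the log2 (RPKM + 1) scale. The hda9 folds over Col-0 lie between 0.245 and 0.435 on the linear scale, while those of sant-null and hda6 lie between 0.692 and 1.09.

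Comparisons between mutants do not use the Col-0 value. In sant-null over hda9 all 10 members were called higher and 0 lower, beside 4.15% of all genes called higher and 16.7% lower. The folds ran from 2.39 (SZF1, 2.28 to 2.50) to 3.35 (DIC2, 3.19 to 3.52), and the median log2 ratio of the members was 1.46, beside -0.12 for all genes. In hda6 over hda9 all 10 members were called higher and 0 lower, beside 11.6% of all genes called higher and 29.7% lower. The folds ran from 1.93 (NHL3, 1.80 to 2.07) to 3.54 (STZ, 3.34 to 3.75), and the median log2 ratio of the members was 1.61, beside -0.21 for all genes. The members thus had a lower level in hda9 than in either other mutant, while the typical gene was slightly higher in hda9.

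The members of sant-null and hda6 were close to each other. In sant-null over hda6 0 of the 10 members were called in either direction, beside 9.92% of all genes called higher and 4.18% lower. The median log2 ratio of the members was -0.09, beside 0.04 for all genes. The interval of the fold lay below 1 at 6 members, of which ERF4 was lowest at 0.831 (0.790 to 0.874). It held 1 at DIC2 (0.999, 0.955 to 1.04), SZF1 (0.990, 0.946 to 1.04) and RHL41 (1.08, 0.987 to 1.17). NHL3 was the 1 member with an interval above 1, at 1.30 (1.20 to 1.40). Signs of ratios this small depended on the scaling: 5 of these 10 ratios changed sign under another scaling, NHL3 and ERF4 not among them.

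The ratio of hda9 to Col-0 fell with the Col-0 level in genes outside the 10 as well. Among the other protein-coding genes of at least 500 bp, the median log2 ratio was 0.89 in the 11004 genes under 5 RPKM in Col-0, 0.40 in the 8097 genes of 5 to 10 RPKM and -0.18 in the 4824 genes of 10 to 20 RPKM. It was -0.73 in the 1678 genes of 20 to 40 RPKM, -1.18 in the 227 genes of 40 to 80 RPKM and -1.40 in the 35 genes of at least 80 RPKM. The median for sant-null over Col-0 also fell, from 0.45 under 5 RPKM to -0.47 at 40 to 80 RPKM and -0.27 above. That for hda6 over Col-0 was 0.20 in the lowest group and -0.22 in the highest. The Col-0 level sets these groups and also divides the ratio, so the slope is not read as a trait of hda9. The members, all of at least 80 RPKM in Col-0, had log2 ratios of hda9 over Col-0 between -2.01 (DIC2) and -1.18 (NHL3). Of these 35 other genes, 31 were called lower in hda9, beside 9.08% of all genes, and 3 higher, beside 43.7%. The 35 include 10 genes between 3 and 4 Mb of chromosome 2 and reach 15109 RPKM in Col-0, so not all are near the members' level. A level lower in hda9 than in Col-0 was therefore shared by most genes at or above the lowest member in Col-0.

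**Figure D3:**
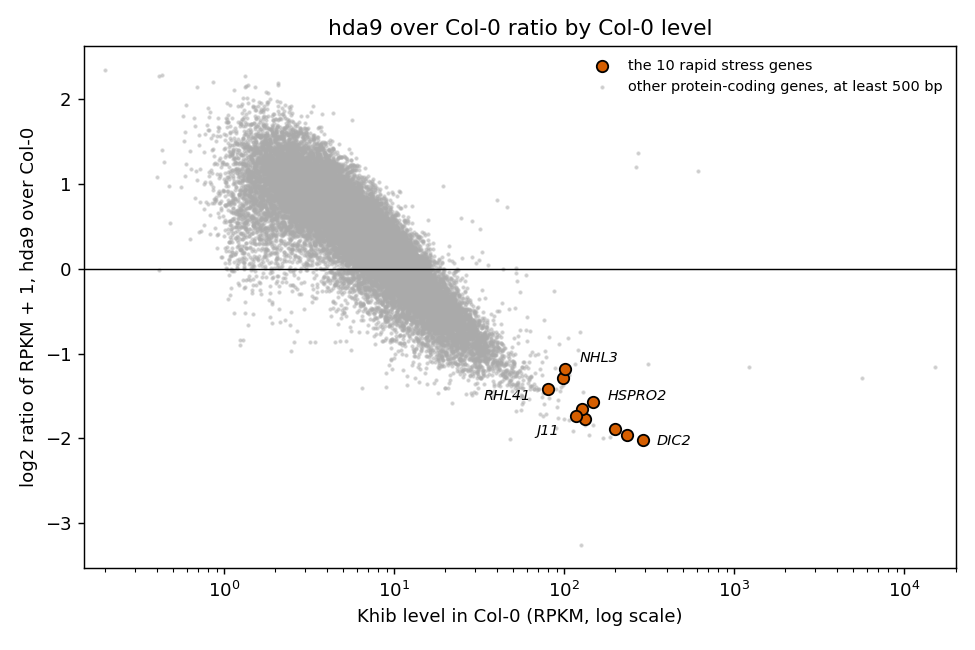
Log2 ratio of RPKM + 1 in hda9 over Col-0 against the Col-0 level in RPKM (log axis) for the 10 genes (large points, 5 of them named) and the other protein-coding genes of at least 500 bp (small points). The 10 genes sit at the lower right end of a cloud that slopes down with the Col-0 level, between -2.01 and -1.18. The Col-0 level enters both axes. The single gene under the left edge is drawn at the edge.

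Between the mutants the same 35 genes also stood near the members. In sant-null over hda9, 28 of these 35 genes were called higher (4.15% of all genes) and 3 lower (16.7%). Their median log2 ratio was 1.20, beside 1.46 for the members. In hda6 over hda9, 30 were called higher (11.6% of all genes) and 3 lower (29.7%), with a median of 1.36, beside 1.61 for the members. In sant-null over Col-0 these genes had 1 call higher (23.7% of all genes) and 9 lower (6.01%). In hda6 over Col-0 they also had 1 higher (9.08%) and 9 lower (3.05%), and no member was called in either. Nothing is called particular to the members from these counts.

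The levels of the genes next to the members were examined. The nearest annotated gene on either side of each member, 20 genes in all, had a median level of 9.19 RPKM in sant-null, 10.4 in hda6, 10.2 in hda9 and 8.16 in Col-0. Each of the 10 members stood above the gene on both sides in each genotype. The median ratio of a member to a neighbour was 12.3 in sant-null, 12.2 in hda6, 4.26 in hda9 and 14.8 in Col-0. The contrast with the neighbours was smallest in hda9.

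The neighbours were also set against Col-0. In hda9 over Col-0, 5 of the 20 neighbours were called higher, beside 43.7% of all genes, and 3 lower, beside 9.08%, with a median log2 ratio of 0.11. The 3 lower ones, named after their values were seen, were AT4G24565 beside DIC2 (log2 ratio -0.85), AT3G03035 beside ERF4 (-0.74) and AT4G36032 beside J11 (-0.77). In sant-null over Col-0 4 neighbours were called higher, beside 23.7% of all genes, and 0 lower, beside 6.01%, with a median of 0.26. In hda6 over Col-0 3 were called higher, beside 9.08%, and 0 lower, beside 3.05%, with a median of 0.27.

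**Figure D4:**
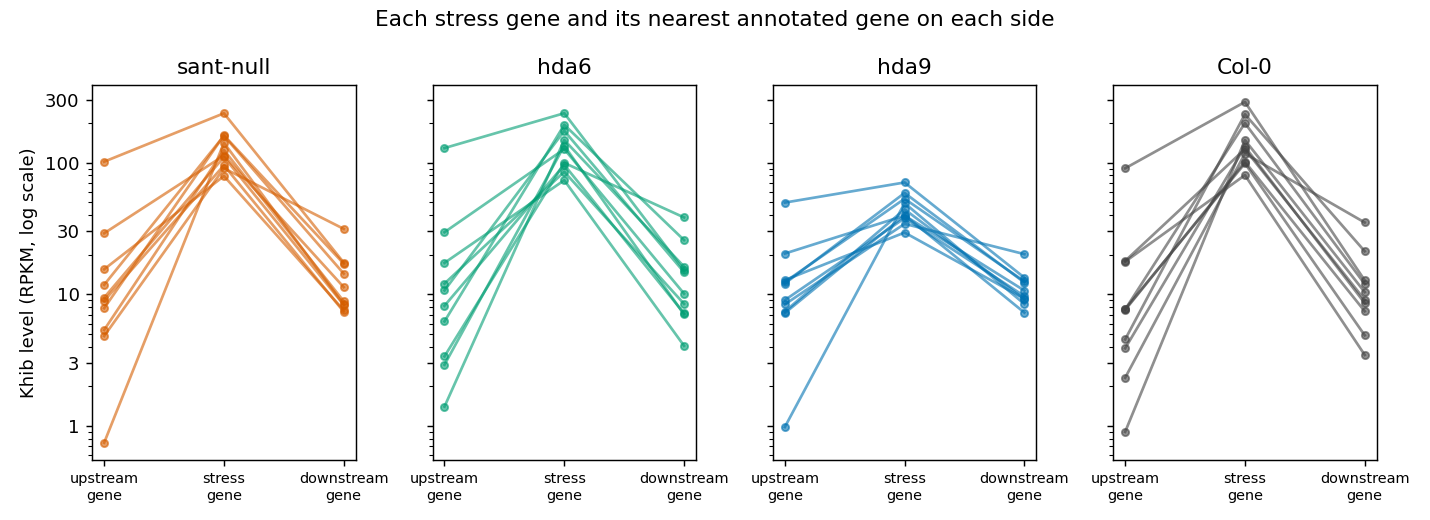
Khib level in RPKM (log axis) of each of the 10 genes and of the nearest annotated gene upstream and downstream, 1 line per gene, in sant-null, hda6, hda9 and Col-0. Every line peaks at the stress gene, and the peaks are lowest in hda9, with a median ratio of member to neighbour of 4.26.

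Some neighbours were close or high. The neighbour with the highest level was AT4G24565, a transfer RNA gene of 82 bp that lies 238 bp upstream of DIC2, at 102 RPKM in sant-null, 129 in hda6, 49.7 in hda9 and 90.5 in Col-0. This short gene rests on few reads, 138 in Col-0. REN1, 228 bp downstream of DIC2, had 17.4 RPKM in sant-null, 15.3 in hda6, 13.4 in hda9 and 12.8 in Col-0. BIP3, a chaperone gene of the endoplasmic reticulum 109 bp downstream of SRC2, had 14.4 RPKM in sant-null, 14.7 in hda6, 12.5 in hda9 and 12.0 in Col-0. BIP3 was thus above the median of all genes and far below SRC2 in each genotype.

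The lowest neighbour was AT2G40004, which lies 1726 bp upstream of HSPRO2. It had 0.747 RPKM in sant-null, 1.41 in hda6, 0.983 in hda9 and 0.904 in Col-0. HSPRO2 thus lies beside a gene with few reads, 15 in Col-0. As no input value was used, a lack of the mark and a poor recovery of reads cannot be told apart at AT2G40004. The downstream neighbour of HSPRO2, EIF2, had 8.37 RPKM in sant-null, 16.2 in hda6, 8.45 in hda9 and 10.4 in Col-0.

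On the upstream side of SRC2, beyond the nearest gene, lie AT1G09050 and AT1G09040, named here because they may be among the SANT loci, which the name table does not say. AT1G09050, 6390 bp from SRC2, had 32.4 RPKM in sant-null, 30.3 in hda6, 39.3 in hda9 and 19.4 in Col-0. AT1G09040, 12095 bp from SRC2, had 0.561 RPKM in sant-null, 6.41 in hda6, 10.05 in hda9 and 4.94 in Col-0. Whether the DNA of these loci is intact in sant-null is not known from the tables. The fold of SRC2 over Col-0 in sant-null was 0.801, and whether these loci bear on it was not tested.

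NHL3 was the 1 member that overlaps other annotated genes. The noncoding RNA gene AT5G01255 (281 bp, opposite strand) lies wholly inside NHL3, from 210 to 491 bp after its start, and takes 28.4% of its length. That stretch held 60.7% of the NHL3 reads in sant-null, 57.9% in hda6, 56.0% in hda9 and 62.0% in Col-0. Its level was 236 RPKM in sant-null, 174 in hda6, 87.1 in hda9 and 222 in Col-0. The reads of NHL3 were thus concentrated in the first part of the gene in each genotype, at 1.97 to 2.18 times the density of the whole gene. NHL3 also shares 159 bp of its end with AtPOT1b. ChIP reads carry no strand of transcription, so the mark cannot be assigned to NHL3 or to its overlapping genes there.

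The members were then set beside their closest relatives, listed by family with earlier results known. The lists held 50 paralogues in 8 families, and SRC2 had none listed. Each of the other 9 members stood above every listed paralogue in all 4 genotypes. The ratio of a member to its highest paralogue ran from 1.51 to 5.65 in sant-null, from 1.21 to 4.68 in hda6, from 1.14 to 3.05 in hda9 and from 1.26 to 6.96 in Col-0. As the members were picked for their Col-0 level and the lists were written with earlier results known, their lead is no finding in any of the 4 genotypes.

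**Figure D5:**
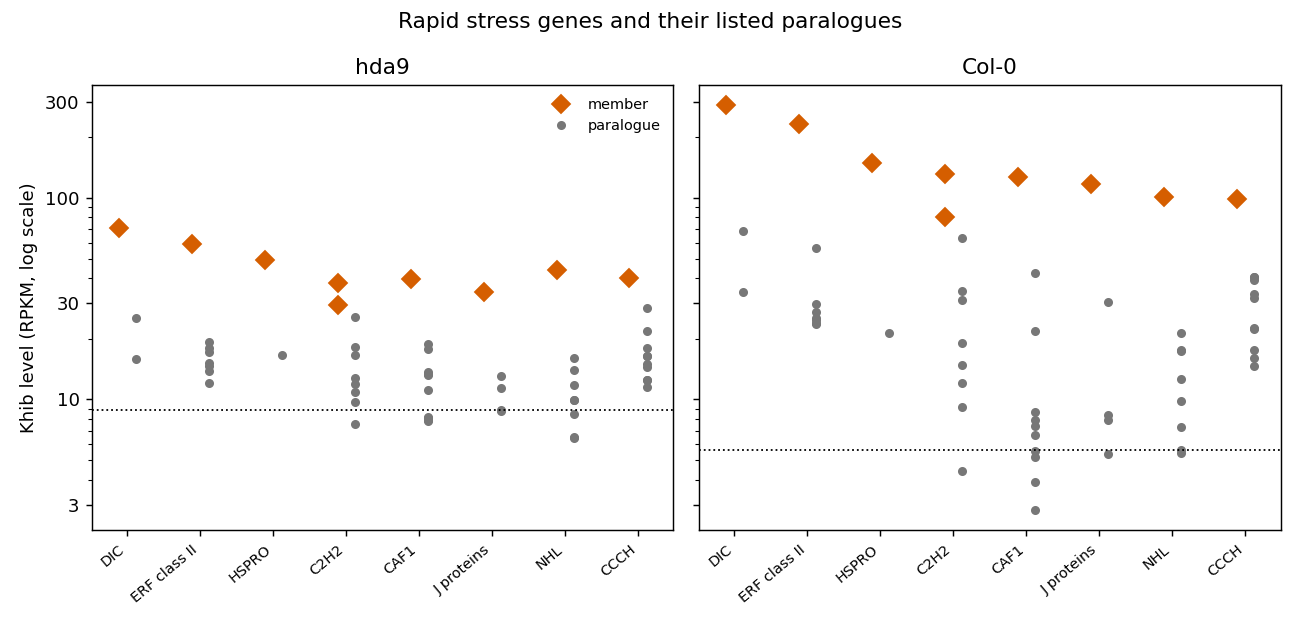
Khib level in RPKM (log axis) of 9 of the 10 genes (diamonds) and their 50 listed paralogues (dots) by family, in hda9 on the left and Col-0 on the right; dotted lines are the medians of all genes. Each diamond stands above the dots of its family, by 1.14 to 3.05 times the highest dot in hda9 and by 1.26 to 6.96 times in Col-0.

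In the organelle families, DIC1, another mitochondrial dicarboxylate carrier gene, had 65.4 RPKM in sant-null, 69.3 in hda6, 25.5 in hda9 and 68.4 in Col-0. DIC3 of the same family had 21.4 RPKM in sant-null, 29.5 in hda6, 15.9 in hda9 and 34.0 in Col-0. DIC2 was 3.62 times DIC1 in sant-null (3.41 to 3.84), 3.42 times in hda6 (3.25 to 3.59), 2.77 times in hda9 (2.62 to 2.93) and 4.22 times in Col-0 (4.03 to 4.41). DIC1 was therefore itself far above the median gene. DJC24, the closest relative of J11, had 24.2 RPKM in sant-null, 32.4 in hda6, 13.1 in hda9 and 30.3 in Col-0, so J11 was 2.63 times as high in hda9 and 3.86 times in Col-0.

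Among the transcription factors, ERF11, a repressor like ERF4, had 34.0 RPKM in sant-null, 33.4 in hda6, 15.2 in hda9 and 27.2 in Col-0. The highest relative of ERF4, ERF8, which is named after its values were seen, had 35.5 RPKM in sant-null, 47.7 in hda6, 19.3 in hda9 and 56.4 in Col-0. ERF4 was 3.05 times ERF8 in hda9 (2.82 to 3.30) and 4.12 times in Col-0 (3.87 to 4.40). The C2H2 genes lay closer together. ZAT6, a zinc finger gene also named after its values were seen, had 52.4 RPKM in sant-null, 60.8 in hda6, 25.8 in hda9 and 63.6 in Col-0, and RHL41 was only 1.14 times as high in hda9 (1.05 to 1.24). AZF2 had 33.0 RPKM in sant-null, 42.0 in hda6, 18.2 in hda9 and 31.2 in Col-0, and AZF1 had 14.7 RPKM and ZAT11 9.15 RPKM in Col-0.

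In the families of RNA turnover, CAF1b, the closest relative of CAF1a, had 39.0 RPKM in sant-null, 49.3 in hda6, 18.8 in hda9 and 42.4 in Col-0. CAF1a was 2.90 times CAF1b in sant-null, 2.57 times in hda6, 2.11 times in hda9 and 2.98 times in Col-0. SZF2, the closest relative of SZF1, had 52.1 RPKM in sant-null, 45.0 in hda6, 28.4 in hda9 and 40.4 in Col-0. SZF2 was thus the closest of the CCCH genes to SZF1 in sant-null and hda9, where SZF1 was 1.83 and 1.40 times as high, while TZF3 was closest in hda6 at 46.5 RPKM and in Col-0 at 40.7 RPKM.

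In the defence families, HSPRO1, the other HSPRO gene, had 26.2 RPKM in sant-null, 31.7 in hda6, 16.6 in hda9 and 21.3 in Col-0. HSPRO2 was 5.39 times HSPRO1 in sant-null (4.93 to 5.90), 4.68 times in hda6 (4.37 to 5.02), 2.97 times in hda9 (2.78 to 3.17) and 6.96 times in Col-0 (6.44 to 7.53). NHL1 and NHL2 had 9.84 and 17.5 RPKM in Col-0, and 9.90 and 9.91 RPKM in hda9. No listed relative of NHL3 was above 24.9 RPKM, the hda6 level of NHL12.

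The paralogues were counted in the same way as the members. In hda9 over Col-0 8 of the 50 paralogues were called higher, beside 43.7% of all genes, and 20 lower, beside 9.08%. Their median log2 ratio was -0.46. In sant-null over Col-0 9 were called higher, beside 23.7%, and 5 lower, beside 6.01%, with a median of 0.06. In hda6 over Col-0 4 were called higher, beside 9.08%, and 0 lower, beside 3.05%, with a median of 0.24. The counts called higher in sant-null and hda6 did not exceed the shares of all genes and are not read as a result. In hda6 over hda9, which leaves Col-0 out, 30 were called higher, beside 11.6%, and 3 lower, beside 29.7%. The median there was 0.65. The paralogues stood between the members and all genes in the 2 comparisons with hda9. Their median Col-0 level, 18.3 RPKM, lay between those of the members and all genes too. Protein-coding genes outside the members with 10 to 20 RPKM in Col-0 had medians of -0.18 and 0.37 in these comparisons. Those of 20 to 40 RPKM had -0.73 and 0.73. The placing is therefore not read as a trait of the families.

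Another 38 genes known for rapid responses to stress, such as WRKY, ERF, CBF and touch-response genes, were listed with earlier results known. Their median level was 35.0 RPKM in sant-null, 34.3 in hda6, 17.7 in hda9 and 27.2 in Col-0. Of the 38, 20 were among the top 1% of protein-coding genes of at least 500 bp in sant-null, 16 in hda6, 11 in hda9 and 14 in Col-0. Levels of the listed genes in Col-0 lay between 2.53 RPKM (MYB15) and 147 RPKM (CBF2). Since earlier results were known when the list was written, nothing is read from it about rapid stress genes in general.

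Few of these genes reached the members. CBF2 had 106 RPKM in sant-null, 97.2 in hda6, 40.1 in hda9 and 147 in Col-0 and was above the lowest member, RHL41, in each genotype. MYB44 (MYBR1 in the name table), a MYB factor known from abscisic acid signalling, had 82.6 RPKM in sant-null, 96.6 in hda6, 37.1 in hda9 and 77.7 in Col-0 and was above RHL41 in the 3 mutants. MYB73 in hda6 and hda9, at 88.4 and 35.8 RPKM, and PUB23 in hda6, at 79.98 RPKM, were above RHL41 too, and are named after their values were seen.

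In the comparisons with hda9 the 38 genes differed in the same direction as the members, to a smaller degree. In hda9 over Col-0 5 of the 38 were called higher, beside 43.7% of all genes, and 20 lower, beside 9.08%. Their median log2 ratio was -0.72. In sant-null over hda9 26 were called higher, beside 4.15%, and 1 lower, beside 16.7%, with a median of 0.80. In hda6 over hda9 26 were called higher, beside 11.6%, and 3 lower, beside 29.7%, with a median of 0.94. The median Col-0 level of the 38 genes was 27.2 RPKM. The 1678 protein-coding genes outside the members with 20 to 40 RPKM in Col-0 had medians of -0.73, 0.42 and 0.73 in the same order of comparisons. The direction is therefore not read as a trait of rapid stress genes. In sant-null over Col-0 10 were called higher, beside 23.7%, and 3 lower, beside 6.01%, with a median of 0.11. These sant-null counts were near the shares of all genes, so nothing is read from them. In hda6 over Col-0 4 were called higher, beside 9.08%, and 3 lower, beside 3.05%, with a median of 0.16.

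The authors also deposited tables of islands, stretches enriched in Khib, with the reads of a mutant and of Col-0. Islands could be used for the 5 members on chromosomes 3 and 5 only: ERF4, CAF1a, NHL3, SZF1 and RHL41. On these chromosomes the islands covered 80.8% to 85.4% of the chromosome's own genes of at least 20 RPKM and at most 18.2% of those of another chromosome at the same coordinates. On chromosomes 1, 2 and 4 they covered up to 89.7% of another chromosome's genes, so islands there cannot be assigned to DIC2, SRC2, HSPRO2, STZ or J11.

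Each of the 5 genes held 1 island in the authors' deposited table of each mutant. In the authors' deposited tables the island of ERF4 ran from 5121201 to 5123000 on chromosome 3 and covered the whole gene. The island of CAF1a in the authors' deposited tables ran from 15952001 to 15953200 on chromosome 3 and covered 89.1% of the gene. The island of NHL3 in the authors' deposited tables ran from 1931001 to 1932000 on chromosome 5, across the start of the gene and 79.0% of its length. The island of RHL41 in the authors' deposited tables, 600 bp wide, ran from 24103001 to 24103600 on chromosome 5. The island of SZF1 ended at 20778600 on chromosome 3 in all of the authors' deposited tables and began at 20776801 in the sant-null table and at 20777001 in the other 2. At least 70.0% of each island lay inside its gene, while islands beside the genes were not looked up. In the authors' deposited tables the islands covered 61.2% of RHL41. They covered 65.9% of SZF1 in the authors' deposited sant-null table and 58.5% in the other 2.

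In the authors' deposited hda9 table all 5 islands were called lower than in Col-0 at an FDR under 0.05, beside 96.6% of all islands on chromosomes 3 and 5, and 0 higher, beside 1.68%. The folds of normalized reads in the authors' deposited table were 0.400 at ERF4, 0.427 at CAF1a, 0.462 at RHL41, 0.494 at SZF1 and 0.501 at NHL3. All 5 islands were at least 1.5-fold lower in the authors' deposited hda9 table, beside 76.6% of all islands there, and 0 were at least 1.5-fold higher, beside 0.172%. The share of members is near that of all islands, so the islands say nothing that sets the 5 genes apart. The gene folds of the same 5 members in hda9 ran from 0.253 to 0.435, with ERF4 lowest in both measures.

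In the authors' deposited sant-null table the islands of SZF1 (fold 1.22), NHL3 (1.16) and RHL41 (1.14) were called higher, beside 9.51% of islands on chromosomes 3 and 5. The island of ERF4 was called lower in the authors' deposited sant-null table, at a fold of 0.948, beside 74.0% of islands, and CAF1a at 1.04 was called in neither direction. In the authors' deposited hda6 table the islands of ERF4 (fold 0.928) and NHL3 (0.913) were called lower, beside 37.0% of islands, and 0 were called higher, beside 22.4%. The 3 others had folds of 1.00 at CAF1a, 0.995 at SZF1 and 0.949 at RHL41 in the authors' deposited hda6 table. No member island differed by 1.5-fold in the authors' deposited sant-null table, beside 2.04% of islands higher and 27.3% lower, or in the hda6 table, beside 2.15% higher and 2.43% lower. At SZF1 and RHL41 the gene folds in sant-null, 0.965 and 0.984, had intervals that held 1, so the 2 measures differ there. The islands' reads were scaled to library totals of 25.7 M in sant-null, 34.2 M in hda6, 73.7 M in hda9 and 35.8 M in Col-0, 1.90 to 2.14 times the totals behind the RPKM values, and the authors' FDR takes no replicate spread into account.

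The 5 non-members whose levels were most like the members' median pattern over the 4 genotypes were CAB1, LHB1B2, UBQ11, CBF2 and EXL2. Likeness was the largest absolute difference in log2(RPKM + 1) over the 4 genotypes, with 1 value each. It was 0.36 for the antenna gene CAB1, 0.39 for the antenna gene LHB1B2, 0.39 for the polyubiquitin gene UBQ11, 0.42 for CBF2 and 0.43 for EXL2. UBQ11 stood at 102 RPKM in sant-null, 105 in hda6, 37.5 in hda9 and 98.6 in Col-0.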

How the data were processed

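Khib ChIP-seq values of 4 genotypes were used, 1 value per genotype. The submitters' processing notes name CASAVA, bedtools, SICER 1.0.3, Bowtie2 2.2.5 and the build TAIR10, without their roles. The way the 2 replicates and the input libraries entered these values is not given in the sources used. The authors deposited RPKM per gene, per the file headers. Reads were recovered by multiplying RPKM with gene length and depth, and 100% of them came out whole to within 0.05 reads. For each island the authors deposited the read counts, the same reads as RPM, a fold (the ratio of the RPM values), and a p-value and FDR per direction, per the file headers.

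The members and lists were chosen with earlier results of these data known. Ratios were log2 of RPKM + 1, which understates the change of low genes, with no test, over genes of at least 1 RPKM in at least 2 genotypes. Intervals (95%) were exact Poisson for levels and conditional exact Clopper-Pearson for folds. They cover counting error only, and depth sets their width. Genes were ranked among protein-coding genes of at least 500 bp. Islands overlapped a gene by at least 1 bp and were called at FDR under 0.05. Named were all members, their neighbours, the closest paralogues and listed genes at or above the lowest member in Col-0. The genes at the rank edges, the 5 most alike and the tissue genes were named too. Others are marked as named later or were, like TZF3, NHL12 and MYB15, named for their values. Positions are those of the files, written from 1. Gene names and types (protein-coding or not), with no coordinates, were taken from a TAIR10.1 table that held each of the 32548 loci, with a symbol for 10804. Scripts used Python 3.11.15, numpy 2.4.6, pandas 2.3.3, scipy 1.17.1 and matplotlib 3.10.9, and were tested on simulated data. Alternatives were other pseudocounts, scalings, filters, folds, rankings, FDR limits and overlaps.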

Additional observations from a re-analysis of the deposited data

Results flagged for a closer look

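NHL3 was the 1 member whose difference from Col-0 went opposite ways in different mutants, with intervals of counting error on either side of 1. Over Col-0, the sant-null fold was 1.09, the hda6 fold 0.839 and the hda9 fold 0.435. The difference between the mutants was not tested, since there is 1 value per genotype, and the 3 folds share the Col-0 value.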

How the results depend on the processing

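Each ratio with hda9 kept its direction under every scaling and pseudocount, and all 10 members stayed at least 1.5-fold lower in hda9 in its 3 comparisons, except 9 of 10 against hda6 with quantile normalization. Of 60 log2 ratios of single members, 9 changed sign under some scaling, all within 1.5-fold of no change: 1 in sant-null over Col-0 (NHL3), 3 in hda6 over Col-0 and 5 in sant-null over hda6. The median log2 ratio of the members moved as follows; the cause was not tested. With equal medians over all genes it was -0.59 in sant-null over Col-0, -0.49 in hda6 over Col-0, -2.31 in hda9 over Col-0, -0.22 in sant-null over hda6, 1.62 in sant-null over hda9 and 1.90 in hda6 over hda9. With that scaling 5 members were called lower in sant-null and 2 in hda6, but the share of all genes was not counted. With quantile normalization the median log2 ratio of the members was, in the same order, -0.18, -0.18, -1.14, -0.01 (-0.0055), 0.85 and 0.96. Without the 20 genes with the most reads in the depth it was -0.17, -0.21 and -1.77 in sant-null, hda6 and hda9 over Col-0. With a pseudocount of 0 it was -1.72 in hda9 over Col-0. With a pseudocount of 5 it was -1.60 in hda9 over Col-0, 1.39 in sant-null over hda9 and 1.53 in hda6 over hda9. At 2-fold, 9 members were called higher in hda6 over hda9. Among all genes of the tables the median rank was 68.5 in sant-null, 72.5 in hda6, 368.5 in hda9 and 54.5 in Col-0, because more genes were ranked. At an FDR under 1e-06 in the authors' deposited tables, 1 member island was called higher and 0 lower in sant-null, and 0 lower in hda6. Folds of the authors' islands at 1.5-fold, added after the data were seen, gave the same counts for the members on chromosomes 3 and 5. No paired analysis was possible because the tables hold 1 value per genotype, so leaving out a replicate was not run either, and the planned search for promoter motifs was not run. Limits are the missing replicate spread, the unused input and the different range of levels in hda9.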

Other observations

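Reads per bp of the 5 islands on chromosomes 3 and 5 differed from those of the genes they cover, although the island totals were 1.90 to 2.14 times the gene totals. At ERF4, the island in the authors' deposited table held 1.24 reads per bp in hda9 and 1.503 in Col-0, while the gene held 2.28 reads per bp in hda9 and 4.33 in Col-0. The island density in the authors' deposited tables was 0.529 to 1.03 times the gene density at the 5 members in sant-null, 0.411 to 0.879 times in hda6, 0.543 to 0.994 times in hda9 and 0.347 to 0.799 times in Col-0. Other genes on these chromosomes with Col-0 levels of 20 to 40 RPKM had median ratios of 1.15 to 1.19 in Col-0 in the authors' deposited tables, and those of 40 to 80 RPKM had 0.855 to 0.857. Those of at least 80 RPKM, the level of the members, gave 5 pairs of island and gene in each of the authors' deposited tables. Their median ratio there was 0.685 in Col-0, and the mutants' medians lay between 0.675 (hda6) and 0.871 (sant-null). The Col-0 median of these genes lay inside the members' range. The cause was not tested.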
